A study of Mus musculus with 9 samples.

Results

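The interferon-inducible GTPases described here are 8 mouse genes of 2 families: the guanylate-binding proteins Gbp2, Gbp2b (listed as Gbp1 in older annotation) and Gbp3, and the immunity-related GTPases Irgm1, Igtp, Ifi47, Iigp1 and Tgtp1. They were taken by symbol from the array's annotation, and 10 of its 22690 probe sets carry these names. Of these, 9 probe sets belong to 7 of the genes alone, and the 10th (1449009_at) is annotated to both Tgtp1 and Tgtp2, near-identical genes that it cannot tell apart. RNA came from macrophages that thioglycollate, an irritant, had drawn into the mouse peritoneum. The mice were wild type, MyD88 KO or TRIF KO, the knockouts lacking the adaptor at the head of 1 of the 2 signalling branches of Toll-like receptor 4, which senses bacterial lipopolysaccharide (LPS). Cells of each genotype were unstimulated (0 h) or given 100 ng/ml LPS for 1 h or 4 h, which made 9 groups of 1 array each. The strain background, age and number of mice, and whether arrays came from separate or pooled animals, were not given in the sources used here.

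Guanylate-binding proteins and immunity-related GTPases are among the proteins that interferons raise most in macrophages. They gather on the membranes around intracellular bacteria and parasites, mark and break these vacuoles, and guanylate-binding proteins also help cytosolic LPS reach inflammatory caspases. Irgm1 and Igtp belong to the GMS subfamily of regulators, which protect the cell's own membranes from the GKS effectors such as Iigp1, Tgtp1 and Ifi47. From Toll-like receptor 4, TRIF leads through IRF3 to interferon beta, which acts back on the cells through its receptor, while MyD88 leads to early NF-kB activation.

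The stretch just before the start of these genes was searched for the 2 elements through which interferons act. The interferon-stimulated response element (ISRE), a binding site of interferon regulatory factors, was searched as GAAANNGAAA on both strands, and the gamma-activated site (GAS) as TTCNNNGAA, which reads the same on both strands. The letters are 150 bases before each start from RefSeq (GRCm38.p6), 5′ to 3′ on the gene's strand, with matches in capitals. They are shown because 6 of the 7 members whose windows were searched hold an ISRE match, at various distances from the start. The windows are chr3:142620513-142620662 on the plus strand for Gbp2, chr3:142594697-142594846 on the plus strand for Gbp2b, and chr3:142559894-142560043 on the plus strand for the first listed start of Gbp3. Those of the other family are chr11:48871421-48871570 on the minus strand for Irgm1, chr11:58199406-58199555 on the plus strand for Igtp, chr11:49076437-49076586 on the plus strand for Ifi47, and chr11:48992247-48992396 on the minus strand for Tgtp1.
Gbp2: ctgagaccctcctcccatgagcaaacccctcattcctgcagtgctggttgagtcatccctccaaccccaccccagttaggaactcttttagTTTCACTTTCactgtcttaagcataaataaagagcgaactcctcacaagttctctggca
Gbp2b: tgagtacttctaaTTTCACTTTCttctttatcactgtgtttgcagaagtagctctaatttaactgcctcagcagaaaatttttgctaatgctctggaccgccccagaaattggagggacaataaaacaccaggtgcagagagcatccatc
Gbp3: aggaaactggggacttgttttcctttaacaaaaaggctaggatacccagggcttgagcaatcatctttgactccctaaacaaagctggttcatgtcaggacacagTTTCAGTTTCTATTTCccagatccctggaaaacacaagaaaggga
Irgm1: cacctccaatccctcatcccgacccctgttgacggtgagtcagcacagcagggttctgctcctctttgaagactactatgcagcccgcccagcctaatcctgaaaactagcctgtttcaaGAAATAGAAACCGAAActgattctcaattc
Igtp: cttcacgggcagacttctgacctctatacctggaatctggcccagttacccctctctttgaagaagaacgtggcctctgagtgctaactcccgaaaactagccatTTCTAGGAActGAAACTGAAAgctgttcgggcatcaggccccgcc
Ifi47: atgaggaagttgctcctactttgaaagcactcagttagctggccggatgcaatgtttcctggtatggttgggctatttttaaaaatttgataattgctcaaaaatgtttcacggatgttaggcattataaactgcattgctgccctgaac
Tgtp1: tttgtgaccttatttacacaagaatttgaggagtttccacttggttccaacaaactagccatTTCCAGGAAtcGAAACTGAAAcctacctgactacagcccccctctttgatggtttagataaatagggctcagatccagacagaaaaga
Among all 32851 promoter windows of the same length, 1.59% held an ISRE match and 4.09% a GAS match. The ISRE match of Gbp2 ended 49 bases before the start and that of Gbp2b, with the same 10 letters TTTCACTTTC, 127 bases before it. Gbp3 and Irgm1 each had 2 overlapping matches. GAS matches were found for 2 of the 7 members, Igtp (TTCTAGGAA) and Tgtp1 (TTCCAGGAA), in both cases 2 bases upstream of an ISRE match GAAACTGAAA. Ifi47 and the second listed start of Gbp3 held neither motif in these windows. Matches are a description of the letters, not of binding, and Iigp1 is named without a sequence.

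Values are RMA log2 expression values as the authors deposited them, in which 1 unit is a 2-fold step. The medians of the 9 arrays lay between 7.01 and 7.07, and with 1 array a group their number limits the precision of every value. A gene took its probe set with the highest mean, and 10032 of 12394 genes reached 6 on at least 1 array and were tested, among them the 7 members with a probe set of their own. Myd88 was 0.44 lower in MyD88 KO than in wild type (limma, Benjamini-Hochberg adjusted p = 0.00487), and Ticam1, the gene of TRIF, has no probe set listed for it alone. All 12 measured macrophage markers reached 6, with gene means of 8.90 to 14.47. Of 16 T or NK cell markers 10 reached 6, and their summed linear level was 1330 to 1416 for wild type, 1333 to 1376 for MyD88 KO and 1292 to 1351 for TRIF KO. Summed dendritic cell markers, of which 6 of 8 reached 6, were 2095 to 2332 in wild type against 3303 to 3546 in MyD88 KO and 3633 to 3897 in TRIF KO, and markers of mesothelium or fibroblasts, of which 7 of 10 reached 6, were 867 to 904, 1145 to 1217 and 1052 to 1223 in the same order. Neutrophil markers, 7 of 8 of which reached 6, summed to 1242 to 1417, 1175 to 1204 and 1211 to 1264, and B cell markers, 7 of 9, to 4150 to 5103, 3792 to 4814 and 3868 to 4550. These sums are of linear levels, so the most abundant genes weigh most. Means of the dendritic cell genes had a median of 7.18 and a maximum of 10.86. Against wild type, limma called 1 of the 6 dendritic cell genes higher for each knockout. Their median shift was 0.05 for MyD88 KO and 0.06 for TRIF KO. Of the 7 mesothelium or fibroblast genes it called 4 and 3 higher, with medians of 0.24 and 0.22. The part of the cell types other than macrophages in the results was not tested. In RNA from whole cultures, fewer cells of a type and less RNA per cell cannot be told apart.

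Within the first hour of LPS the GTPases had small differences in all 3 genotypes. Over the 10 probe sets and 3 genotypes, 1 h minus 0 h ranged from -0.45 to 0.34. It was below 0 for 9 of 10 probe sets in wild type, above 0 for 8 of 10 in MyD88 KO and above 0 for 6 of 10 in TRIF KO. Medians over the 7 tested members were -0.073, 0.043 and 0.030 in that order. Over all genes they were -0.021, -0.025 and 0.007, and over reference transcripts -0.078, 0.020 and 0.037. How many of all genes lay on each side of 0 at 1 h was not counted. The median of reference transcripts lay at -0.14 on the wild-type 1 h array and 0.10 on the MyD88 KO 1 h array, relative to its mean over the arrays, and its part in these directions was not tested. None of the 7 members was 2-fold higher at 1 h in any genotype, where 0.239% of all genes were for wild type, 0.0698% for MyD88 KO and 0.14% for TRIF KO. In a limma fit of genotype and time to all 9 arrays, 0 of the 7 members passed an adjusted p of 0.05 for 1 h minus 0 h, and 0 had an unadjusted p under 0.05. The same fit called 29 genes higher, 0.289% of those tested, and 543 of all 10032 genes had an unadjusted p under 0.05.

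By 4 h most of the members had risen. In the same limma fit 5 of 7 were higher at 4 h than at 0 h, averaged over the genotypes, beside 4.62% of all genes. These were Gbp2 (1.62 ± 0.196, SE of the fit, adjusted p = 0.000208), Ifi47 (0.86 ± 0.130, adjusted p = 0.000965), Gbp3 (0.55 ± 0.113, adjusted p = 0.00734), Iigp1 (0.38 ± 0.0815, adjusted p = 0.00926) and Irgm1 (0.62 ± 0.144, adjusted p = 0.0139). Igtp (0.30, adjusted p = 0.0856) and Gbp2b (0.49, adjusted p = 0.138) did not pass. The probe set shared by Tgtp1 and Tgtp2 was tested in a fit of all probe sets and rose by 0.66 ± 0.106 (adjusted p = 0.00226), where 4.69% of probe sets were higher. Irgm1 passed in 13 of 19 alternative settings. It missed the threshold without the wild-type 0 h array (0.63, adjusted p = 0.0543), without the wild-type 4 h array (0.46, adjusted p = 0.101) and without the MyD88 KO 0 h array (0.51, adjusted p = 0.0732). It also missed it with values below 6 raised to 6 (adjusted p = 0.0597), without all MyD88 KO arrays (adjusted p = 0.104) and without all wild-type arrays (adjusted p = 0.118). Iigp1 missed it without the TRIF KO 0 h array (0.35, adjusted p = 0.0641). Without all 3 wild-type arrays 2 of 7 passed, Gbp2 and Ifi47.

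**Figure D1:**
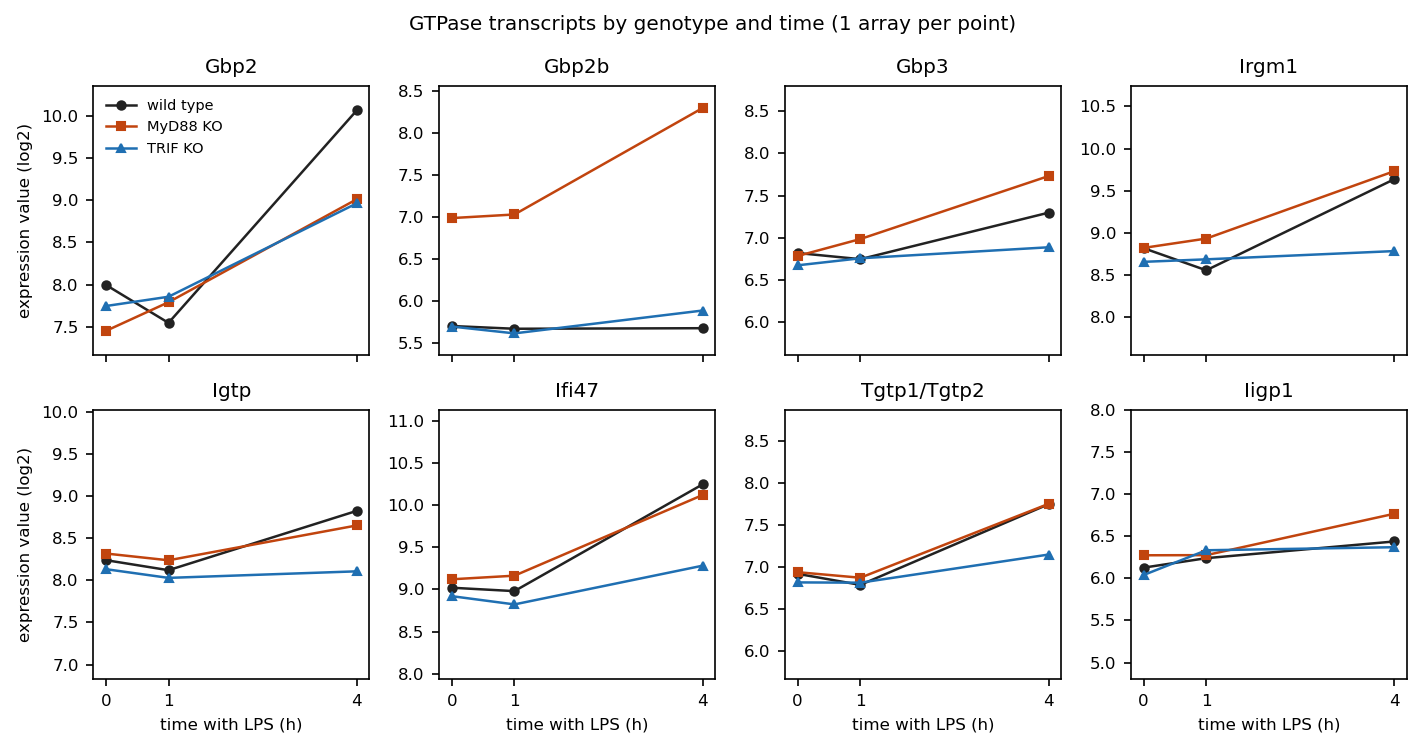
Log2 expression of the 8 members (1 panel each, axes of equal length in log2 units) against hours of LPS, with 1 point per array and 1 line per genotype. The lines stay near level from 0 to 1 h and rise by 4 h for most members, Gbp2 reaching 10.07 in wild type, and Gbp2b is high on the 3 MyD88 KO arrays only, from 6.99 to 8.29 against 5.62 to 5.89 elsewhere.

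Among the guanylate-binding proteins, Gbp2, which coats pathogen vacuoles and bacteria, had the largest rise. Its values at 0, 1 and 4 h were 7.997, 7.55 and 10.07 in wild type, 7.45, 7.79 and 9.01 in MyD88 KO, and 7.74, 7.86 and 8.96 in TRIF KO. The 4 h array of each genotype stood above all 6 arrays taken at 0 h or 1 h, and both knockouts were near 9 where wild type was near 10. The 4 h level was 4.20-fold the 0 h level for wild type, 2.96-fold for MyD88 KO and 2.33-fold for TRIF KO. A second probe set of Gbp2 (1418240_at) gave 1.88, 1.52 and 1.24 for 4 h minus 0 h in the same order, against 2.07, 1.56 and 1.22 for the first (1435906_x_at).

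Gbp3, another guanylate-binding protein of the same chromosome 3 cluster, moved less and with another order of genotypes. It read 6.82, 6.74 and 7.30 at 0, 1 and 4 h in wild type, 6.78, 6.98 and 7.73 in MyD88 KO, and 6.67, 6.75 and 6.89 in TRIF KO. Its highest array was MyD88 KO at 4 h, and TRIF KO at 4 h lay below MyD88 KO at 1 h.

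Gbp2b, which lies between Gbp3 and Gbp2 on chromosome 3, followed neither neighbour. It was 5.70, 5.67 and 5.68 at 0, 1 and 4 h in wild type and 5.70, 5.62 and 5.89 in TRIF KO, so that these 6 arrays spanned 5.62 to 5.89. MyD88 KO read 6.99, 7.03 and 8.29, above all 6 of the others already without LPS. Gbp2b passed the minimum of 6 through the 3 MyD88 KO arrays alone, so its high level there was a condition of its being tested. MyD88 KO minus wild type was 1.28 at 0 h, 1.36 at 1 h and 2.62 at 4 h, ranks 5, 4 and 3 from the highest of 10032 genes. At each of these times it was the 1 member at least 2-fold higher in MyD88 KO, beside 0.0797%, 0.12% and 0.209% of all genes.

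The regulators Irgm1 and Igtp rose in wild type and stayed near their unstimulated level in TRIF KO. Irgm1, a membrane-bound regulator tied to autophagy, read 8.82, 8.55 and 9.64 at 0, 1 and 4 h in wild type, 8.82, 8.93 and 9.73 in MyD88 KO, and 8.65, 8.68 and 8.78 in TRIF KO. Its TRIF KO arrays spanned less than the step from 0 to 1 h in wild type. Igtp (also called Irgm3), a regulator found on the endoplasmic reticulum and lipid droplets, read 8.24, 8.12 and 8.83 in wild type, 8.32, 8.24 and 8.65 in MyD88 KO, and 8.13, 8.03 and 8.11 in TRIF KO. In TRIF KO its 4 h array lay below its 0 h array.

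The effector-type members Ifi47 (also called Irgd) and the Tgtp pair had higher 4 h values in every genotype, with the smallest step in TRIF KO. Ifi47 read 9.02, 8.98 and 10.25 at 0, 1 and 4 h in wild type, 9.12, 9.16 and 10.12 in MyD88 KO, and 8.92, 8.82 and 9.28 in TRIF KO. The probe set shared by Tgtp1 and Tgtp2 read 6.92, 6.79 and 7.74 in wild type, 6.94, 6.87 and 7.75 in MyD88 KO, and 6.81, 6.81 and 7.15 in TRIF KO. In both cases the 4 h arrays of wild type and MyD88 KO lay close together and TRIF KO at 4 h lay between them and the unstimulated arrays. Iigp1 (Irga6), the best studied effector, which loads onto the Toxoplasma vacuole, read 6.13, 6.24 and 6.44 in wild type, 6.27, 6.28 and 6.77 in MyD88 KO, and 6.04, 6.33 and 6.37 in TRIF KO with probe set 1419043_a_at. These values are close to the minimum of 6, and its other probe set (1419042_at) lay at 3.93 to 4.12 on all 9 arrays.

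To test the 4 h rise within a genotype, the 0 h and 1 h arrays of that genotype served as 2 baseline arrays in a second limma fit, which has 3 residual degrees of freedom. These come from the differences between 0 h and 1 h alone, so each 4 h effect is 1 array and is assumed to vary as the baseline arrays do. In wild type 5 of the 7 members were higher at 4 h, where 3.98% of all genes were. Gbp2 rose by 2.30 ± 0.171 (adjusted p = 1.90e-06), Ifi47 by 1.25 ± 0.106 (adjusted p = 5.31e-06), Irgm1 by 0.95 ± 0.123 (adjusted p = 0.000173), Igtp by 0.64 ± 0.111 (adjusted p = 0.00168) and Gbp3 by 0.52 ± 0.116 (adjusted p = 0.0112). Iigp1 (0.25, adjusted p = 0.289) and Gbp2b (-0.01) did not pass. The probe set of the Tgtp pair rose by 0.89 ± 0.109 (adjusted p = 0.000294) in the fit of all probe sets, of which 3.66% were higher.

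In MyD88 KO the limma fit also called 5 of 7 members higher, where 1.37% of all genes were. They were Gbp2 (1.39 ± 0.171, adjusted p = 0.000418), Gbp2b (1.29 ± 0.105, adjusted p = 1.51e-05), Ifi47 (0.98 ± 0.106, adjusted p = 0.000159), Irgm1 (0.86 ± 0.123, adjusted p = 0.00136) and Gbp3 (0.85 ± 0.116, adjusted p = 0.000919). Igtp (0.37, adjusted p = 0.162) and Iigp1 (0.49, adjusted p = 0.0804) did not pass, and the Tgtp probe set rose by 0.84 (adjusted p = 0.00157), where 1.15% of probe sets were higher. Gbp2b was in the tested set through its MyD88 KO arrays alone. With no filter on low values its rise in MyD88 KO had a limma adjusted p of 8.45e-06. With values below 6 raised to 6, the members that passed were Gbp2b and Ifi47. In TRIF KO 1 member passed, Gbp2 with 1.16 ± 0.171 (adjusted p = 0.00183), where 1.29% of all genes were higher. Ifi47 was 0.41 higher there (adjusted p = 0.0647) and the Tgtp probe set 0.33 higher (adjusted p = 0.211). In TRIF KO the count was 0 with values below 6 raised to 6. Without the wild-type 0 h or the wild-type 1 h array it was 2, with Ifi47 added (adjusted p = 0.0453 in each case).

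**Figure D2:**
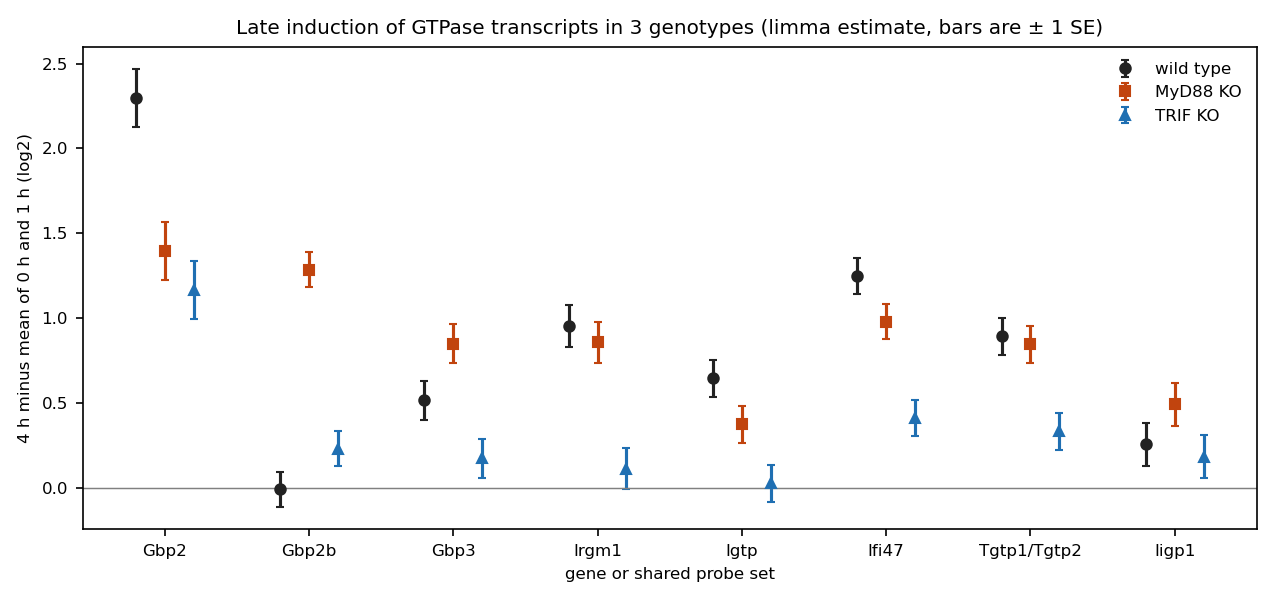
The 4 h log2 value minus the mean of the 0 h and 1 h values for each member, with points for wild type, MyD88 KO and TRIF KO and bars of ± 1 SE from the limma fit. Wild type and MyD88 KO lie close for Irgm1 (0.95 and 0.86). TRIF KO lies lowest for all shown but Gbp2b, though for Iigp1 its bar overlaps that of wild type (0.18 and 0.25). Gbp2b reads 1.29 in MyD88 KO against -0.01 in wild type and 0.23 in TRIF KO.

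Between the knockouts, the 4 h minus 0 h difference was smaller in TRIF KO than in MyD88 KO for 7 of 7 members, where it was smaller for 46.6% of all genes. The median gap was -0.64 over the members and 0.01 over all genes. Gbp2b is counted here though it was tested through its MyD88 KO arrays alone, and its gap of -1.12 was the lowest. All other tested members also had a gap below 0, and the median gap was not taken without Gbp2b. TRIF KO minus wild type had a median of -0.61 and was below 0 for 5 of 7. Over all 10032 genes its median was -0.01, and 5267 were below 0. MyD88 KO minus wild type had a median of 0.09, with 4 above 0 and 3 below. Over all genes its median was -0.03, with 4503 above 0 and 5529 below. Both knockouts are set against the same wild-type arrays here. The medians of 4 h minus 0 h were 0.59 for wild type, 0.95 for MyD88 KO and 0.21 for TRIF KO, against 0.01, -0.04 and -0.02 over all genes. Without Gbp2b they were 0.70, 0.93 and 0.27. At least 2-fold higher at 4 h than at 0 h were 2 members in wild type (Gbp2 and Ifi47), 3 in MyD88 KO (these and Gbp2b, tested through its arrays there alone) and 1 in TRIF KO (Gbp2). Of all genes, 1.23%, 0.429% and 0.409% were, in that order.

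Tests of the differences between genotypes reached fewer members. The 4 h rise of Ifi47 was smaller in TRIF KO than in wild type by limma (-0.84 ± 0.149, adjusted p = 0.0391), the 1 member called lower where 0.189% of all genes were. That call held in 4 of 14 alternative settings, in which the adjusted p ranged from 0.0379 to 0.236 and the difference from -0.89 to -0.79. It was lost without any 1 of the 6 arrays taken at 0 h or 1 h (adjusted p 0.0581 without wild-type 0 h, 0.0726 without wild-type 1 h, 0.116 without either MyD88 KO array, 0.163 without TRIF KO 0 h and 0.0914 without TRIF KO 1 h). Among the settings in which it held, leaving out the MyD88 KO 4 h array cannot change the result, because that array has its own effect in this fit. Gbp2 (-1.13, adjusted p = 0.101), Irgm1 (-0.84, adjusted p = 0.0946) and Igtp (-0.62, adjusted p = 0.287) had differences in the same direction that did not pass. Without the wild-type 0 h array Gbp2 (-1.36, adjusted p = 0.0331) and Irgm1 (-0.97, adjusted p = 0.0305) passed. Against MyD88 KO, the smaller rises of Irgm1 (-0.74, adjusted p = 0.356), Gbp3 (-0.68, adjusted p = 0.430) and Ifi47 (-0.57, adjusted p = 0.683) in TRIF KO did not pass.

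Gbp2b differed between genotypes in level and in rise. The sources used here do not say whether the lines share a strain background, so the knockout and other differences between the lines cannot be told apart for this gene. Over the 3 times it was higher in MyD88 KO than in wild type by 1.75 ± 0.195 in the fit of genotype and time (limma adjusted p = 0.000185), the 1 member called higher where 4.56% of all genes were. That fit assumes 1 gap for all times, while the gap was 1.28, 1.36 and 2.62 at 0, 1 and 4 h. Gbp2b was lower in TRIF KO than in MyD88 KO by the same fit (-1.70, adjusted p = 0.000383), where 1.02% of all genes were lower. Without the wild-type 4 h array that fit also called Ifi47 (-0.46, adjusted p = 0.0246) and Igtp (-0.31, adjusted p = 0.0483) lower in TRIF KO than in MyD88 KO, and without the MyD88 KO 0 h array Gbp3 (-0.53, adjusted p = 0.0470). Its 4 h rise was larger in MyD88 KO than in wild type by 1.30 ± 0.148 (adjusted p = 0.00115), where 0.12% of all genes were called so. The rise was smaller in TRIF KO than in MyD88 KO by the second fit (-1.06 ± 0.148, adjusted p = 0.0116), where 0.11% were. This last call was lost without the MyD88 KO 0 h (adjusted p = 0.0897), MyD88 KO 1 h (adjusted p = 0.0716) or TRIF KO 0 h array (adjusted p = 0.0552). With no filter on low values the limma adjusted p for MyD88 KO minus wild type was 9.97e-05 for the level and 0.000931 for the rise. For TRIF KO minus MyD88 KO it was 0.000201 for the level and 0.0104 for the rise, again with no filter.

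No other member passed for a difference in level between wild type and a knockout in the fit of genotype and time. Gbp2 was -0.45 in MyD88 KO minus wild type (limma adjusted p = 0.210), and without the wild-type 1 h array it passed as lower (-0.79, adjusted p = 0.0188). In TRIF KO minus wild type 0 of 7 passed, where 0.419% of all genes were lower and 1.18% higher. An unadjusted limma p under 0.05 was reached by 2 members, Ifi47 (-0.41, adjusted p = 0.190) and Igtp (-0.31, adjusted p = 0.220). It was also reached by 1303 of all 10032 genes. At 4 h alone, with no test, TRIF KO minus wild type was -1.10 for Gbp2, -0.97 for Ifi47, -0.85 for Irgm1 and -0.72 for Igtp. Gbp2 was the 1 member at least 2-fold lower there, beside 0.349% of all genes, and it was also 2-fold lower in MyD88 KO at 4 h (-1.06), beside 0.558%. Its second probe set (1418240_at) fell short of 2-fold in both, with -0.95 in TRIF KO and -0.72 in MyD88 KO.

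Among the closest profiles were those of members on chromosome 11. Over the 9 arrays, which share genotypes and times, Pearson's r among Irgm1, Igtp and Ifi47 was 0.94 to 0.97, and that of Irgm1 with Gbp3 on chromosome 3 was 0.95. Over all 21 pairs of members it ran from 0.06 to 0.97 with a median of 0.78, and the pairs with Gbp2b from 0.06 to 0.69. Among 362 other genes that spanned at least 1 log2 unit, those most like the members' mean profile were Mndal (r = 0.98), Rsad2 (0.97), Ifit1 (0.97), Ifit2 (0.96), Parp14 (0.96), Cmpk2 (0.95), Helz2 (0.94), Oasl1 (0.94), Rtp4 (0.93) and Mx1 (0.93). Rsad2 (viperin), an antiviral enzyme, gave a 4 h minus 0 h difference of 1.56 for wild type, 1.95 for MyD88 KO and 0.32 for TRIF KO. Ifit1, which binds viral RNA, gave 2.39, 2.24 and 0.69 in the same order. With the mean profile taken without Gbp2b, a choice made after seeing the data, 5 of these 10 were again among the 10 most alike: Parp14, Ifit1, Rsad2, Oasl1 and Mx1.

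**Figure D3:**
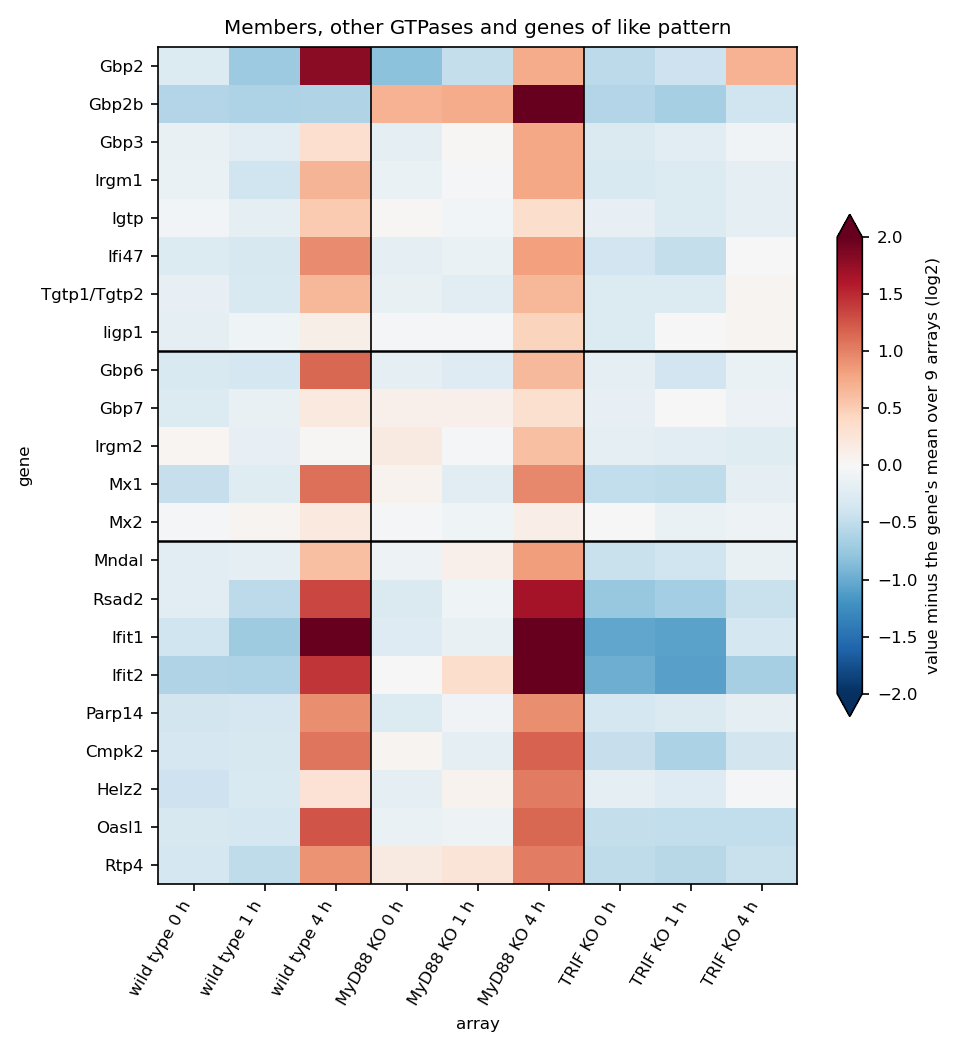
Log2 value minus the gene's mean over the 9 arrays (colour, saturating at 2 units either way) for the members, 5 other interferon-inducible GTPases and the genes most like the members' mean profile; columns are arrays by genotype and hours of LPS. The 4 h columns of wild type and MyD88 KO are the high ones for most genes, and Gbp2b is high in all 3 MyD88 KO columns.

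Of 19 other interferon-inducible GTPases listed, 5 were tested. Gbp6 passed the minimum of 6 through the wild-type 4 h array alone, and Mx1, a dynamin-like antiviral GTPase, through the 4 h arrays of wild type and MyD88 KO, so a high 4 h value there was a condition of their being tested. Their tests are therefore given from the fit of all 12394 genes with no filter on low values. In the fit of genotype and time Gbp6 was 0.78 higher at 4 h (limma adjusted p = 0.0156) and Mx1 0.91 higher (adjusted p = 0.00418). Gbp6 read 4.58, 4.53 and 6.03 at 0, 1 and 4 h in wild type, 4.68, 4.63 and 5.53 in MyD88 KO, and 4.70, 4.50 and 4.75 in TRIF KO. Its 4 h rise was smaller in TRIF KO than in wild type in that fit of all genes (-1.33, adjusted p = 0.00136), as was that of Mx1 (-1.16, adjusted p = 0.0194). Gbp7, the neighbour of Gbp3, rose in wild type (0.40, adjusted p = 0.0411). Irgm2, the neighbour of Igtp, was 7.81 at 0 h and 7.81 at 4 h in wild type, and its 4 h rise passed in MyD88 KO (0.53, adjusted p = 0.0443). Its promoter window held the same GAS and ISRE letters as that of Tgtp1, TTCCAGGAA and GAAACTGAAA.

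Of 25 listed genes that carry interferon signals, 22 were tested, and the interferon genes Ifnb1 (5.33 to 5.58) and Ifng (4.74 to 4.88) stayed under the minimum on all 9 arrays. At 4 h limma called 5 of the 22 higher and 1 lower, where 4.62% of all genes were higher and 7.13% lower, and the list's median was 0.14 against 0.55 over the members and -0.02 over all genes. The higher ones were Socs3 (1.13, adjusted p = 0.00844), an inhibitor of cytokine receptors, the transcription factor Irf1 (0.91, adjusted p = 0.000822), the kinase Jak2 (0.59, adjusted p = 0.00869), the phosphatase Ptpn2 (0.32, adjusted p = 0.00914) and Stat2 (0.31, adjusted p = 0.0298). Irf8, a factor of macrophage identity, fell by 0.55 (adjusted p = 0.00304).

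Of these 22 tested genes, wild type had 2 at least 2-fold higher after 1 h, TRIF KO had 1 and MyD88 KO had 0. These are differences of single arrays. In the fit of genotype and time, Socs3 was not called at 1 h (1.10, limma adjusted p = 0.1285). Irf1, a known activator of guanylate-binding protein genes, was the 1 gene of this list that the fit called higher at 1 h (0.87, adjusted p = 0.0130). It read 9.45, 10.70 and 10.89 at 0, 1 and 4 h in wild type, 9.33, 9.87 and 10.03 in MyD88 KO, and 9.58, 10.41 and 10.17 in TRIF KO. All of its LPS arrays lay above its unstimulated arrays. Its level was lower in MyD88 KO than in wild type over the 3 times (-0.60, adjusted p = 0.0167). Usp18, a brake on the type I interferon receptor, was higher in MyD88 KO than in wild type (0.69, adjusted p = 0.0135) and lower in TRIF KO than in MyD88 KO (-1.16, adjusted p = 0.000900). Irf7, which amplifies type I interferon, was likewise higher in MyD88 KO (0.42, adjusted p = 0.0188) and lower in TRIF KO than there (-0.42, adjusted p = 0.0360).

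**Figure D4:**
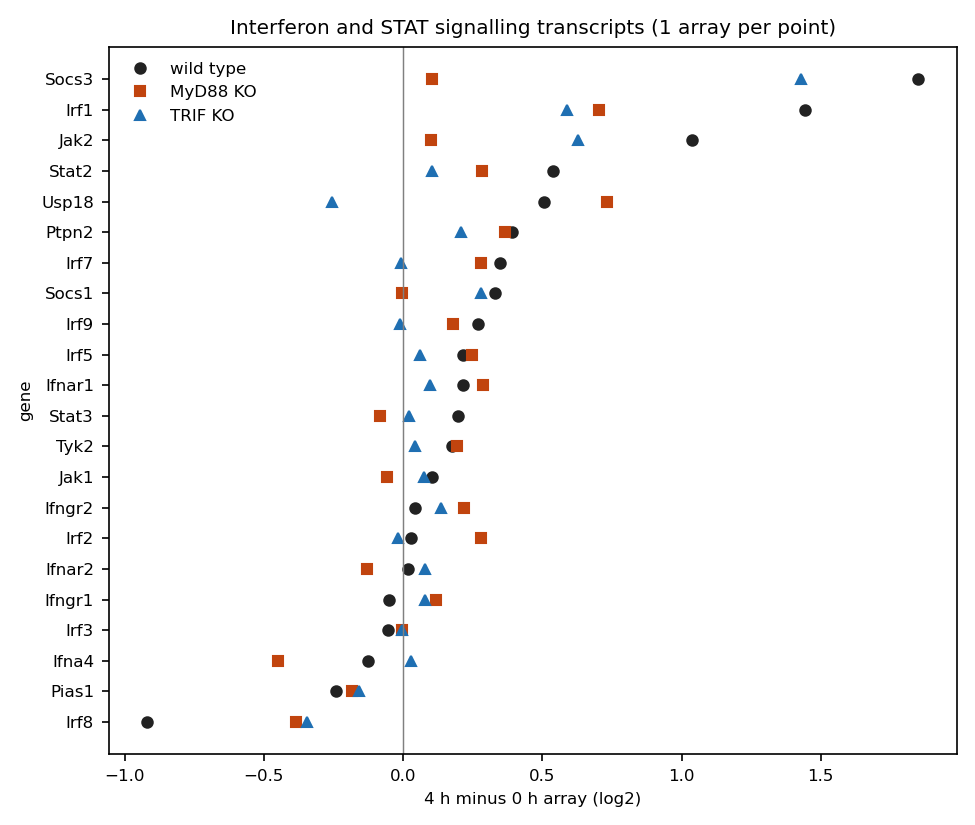
The 4 h minus 0 h log2 difference of 22 interferon and STAT signalling genes in wild type, MyD88 KO and TRIF KO, 1 point per genotype and gene, with no error since each is a difference of 2 arrays. Most points lie near 0, while Irf1 reads 1.45, 0.70 and 0.59 and Usp18 reads 0.50, 0.73 and -0.26 in the order of the genotypes.

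Most genes listed for vacuole targeting and autophagy conjugation were not called at 4 h, and the called ones went both ways. Among 14 tested genes of 16 listed for vacuole targeting and autophagy conjugation, limma called 2 higher at 4 h and 2 lower, where 4.62% of all genes were higher and 7.13% lower, and the list's median was -0.06. Sqstm1 (p62), an adaptor for ubiquitin-marked cargo, was higher (0.73, adjusted p = 0.000105), as was Trim21 (0.35, adjusted p = 0.0188), a ubiquitin ligase that binds antibodies. Map1lc3b (-0.34, adjusted p = 0.00867) and Atg12 (-0.25, adjusted p = 0.0212), both of the autophagy conjugation system, were lower.

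Among other genes that respond to interferon gamma, 8 of 17 tested were higher at 4 h, where 4.62% of all genes were. Cxcl10, a chemokine, gave 4 h minus 0 h differences of 3.03 for wild type, 2.53 for MyD88 KO and 0.64 for TRIF KO. Its 4 h rise was smaller in TRIF KO than in wild type by limma (-2.13, adjusted p = 0.00469). Of the 17 it was the 1 gene called so, where 0.189% of all genes were. Casp4, the caspase that binds cytosolic LPS, rose at 4 h in wild type (1.19, adjusted p = 5.02e-05), MyD88 KO (0.98, adjusted p = 0.000827) and TRIF KO (0.64, adjusted p = 0.0196). Casp4 thus passed in all 3 genotypes, as Gbp2 did among the members.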

How the data were processed

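Biotin-labelled cRNA from total RNA was read on Affymetrix arrays. The authors deposited log2 expression values, for which the submitters' processing notes name RMA. Its version, and whether the 9 arrays were normalised together, were not given in the sources used here. Probe sets were named from the platform annotation: 20393 had 1 gene symbol, 691 several and 1606 were not listed, and 20364 identifiers matched RefSeq. Values were used as deposited.

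Tests used limma 3.58.1 in R 4.3.3 (lmFit, eBayes), two-sided, with Benjamini-Hochberg adjustment over 10032 genes and a threshold of 0.05. One fit held genotype and time (4 residual degrees of freedom), the other a baseline of the 0 h and 1 h arrays and a 4 h effect for each genotype (3 residual degrees of freedom). The first fit has no interaction, so its error is how far the time courses of the genotypes differ. For a gene whose rise differs between genotypes, its estimates are averages over unlike values. The tests were also run on simulated data, with noise of the size that the fits gave each gene. A difference of 0.5 in 4 h rise was recovered for 31% of changed genes for MyD88 KO minus wild type. For TRIF KO minus wild type it was 21%, and a difference of 1 was recovered for 99% and 96%. The labels name no separate mice or cultures, and the p-values reflect how these arrays vary among themselves, which can be technical variation alone. Members and lists were chosen with earlier results of these data known. Named genes were the members, all measured genes of the GTPase and interferon signalling lists, up to 4 of each other list by the wild-type 4 h difference, and the 10 most alike. Atg12, Map1lc3b and Trim21 are named because they passed the test.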

Additional observations from a re-analysis of the deposited data

Results flagged for a closer look

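A test of the difference in 4 h rise between genotypes passed for 3 results. The 4 h rise of Gbp2b was larger in MyD88 KO than in wild type by 1.30 (log2), and smaller in TRIF KO than in MyD88 KO (-1.06). That of Ifi47 was smaller in TRIF KO than in wild type (-0.84). In the order given, these calls held in 14, 9 and 4 of 14 alternative settings. Each tally includes leaving out the 4 h array of the genotype not compared, which cannot change the result. Gbp2b also passed for its level in MyD88 KO minus wild type (1.75) and in TRIF KO minus MyD88 KO (-1.70). Outlying samples were looked for only in groups of 4 to 10, and each group here has 1 array.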

How the results depend on the processing

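No paired analysis was possible because each group has 1 array and the labels carry no replicate numbers. No member's called difference changed sign under any alternative, and 161 counts of called members stayed within 1.5 times of the reported ones, while 24 did not. The 161 include settings that could not change a count: in the second fit, leaving out a 4 h array cannot change results of the other genotypes. At 4 h against 0 h, the count of members was 2 without the wild-type arrays. With values below 6 raised to 6, it was 2 for the rise in MyD88 KO, 0 in TRIF KO, 0 for TRIF KO minus wild type and 0 for TRIF KO minus MyD88 KO; the cause was not tested. With the mean of a gene's probe sets, it was 2 for TRIF KO. Centred on reference transcripts, whose median shifted by -0.14 to 0.10 between arrays, it was 0 for TRIF KO minus wild type and 0 for TRIF KO minus MyD88 KO. For TRIF KO minus wild type it was also 0 with every probe set tested and 0 with an intensity trend. Leaving out 1 array gave ranges of 4 to 6 for 4 h, 1 to 2 for MyD88 KO minus wild type in level, 1 to 3 for TRIF KO minus MyD88 KO in level, 1 to 2 for the rise in TRIF KO, 0 to 2 for TRIF KO minus wild type and 0 to 1 for TRIF KO minus MyD88 KO. Gbp2b's level and rise in MyD88 KO against wild type passed in all 17 and 14 alternatives. For the rise, the 14 include leaving out the TRIF KO 4 h array, which cannot change it. Signals of Iigp1 and of Gbp2b outside MyD88 KO lay near or under the minimum, which limits what these arrays can show of them.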
